A study of Mus musculus with 12 samples.

Results

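The data described here are the genotype by time interaction of chromatin accessibility in differentiating mouse myeloid progenitors, that is, the change over 96 h in HMGN1-OE cells minus the change over 96 h in wild-type cells, taken peak by peak on a log2 scale. All 12 of the 12 ATAC-seq libraries of the series entered the contrast, with 3 libraries in each of the 4 groups: wild-type at 0 h, wild-type at 96 h, HMGN1-OE at 0 h and HMGN1-OE at 96 h. It was tested at 57576 of the 60072 peaks in the table. The peaks were then divided by what wild-type cells did with them: opened, closed, or held steady.

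ATAC-seq measures accessible DNA through a transposase that cuts and tags it where nucleosomes leave it free. The cells of all groups were CD117+ bone marrow progenitors of mice on a C57BL/6 background, grown in IL-3 and immortalized with a retrovirus carrying HoxB8 fused to the estrogen receptor. With estradiol (E2) present the fusion protein is active and keeps the cells immature, and the 0 h groups were taken in this state. The 96 h groups were taken 96 h after E2 withdrawal. HMGN1-OE mice carry a transgene for human HMGN1, and wild-type mice do not. The replicates are called biologically independent, but the number of immortalized lines per genotype is not given in the sources used here. Genotype and the source of the cells cannot be told apart, and the p-values measure the spread between libraries of a group.

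HMGN1 is a small nucleosome-binding protein of the high mobility group N family, known for competing with linker histone H1 and for loosening compacted chromatin. HoxB8 is a homeobox transcription factor known for blocking the maturation of myeloid progenitors, and once it is switched off the cells mature towards neutrophils and monocytes. During such maturation, regulatory elements used by progenitors lose accessibility and elements used by mature myeloid cells gain it. An interaction above 0 means that a peak gained more, or lost less, accessibility with HMGN1 overexpression than without it, and an interaction below 0 means the opposite. A single sign can thus describe quite different courses, and each is given below with the values of its libraries.

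Library totals were 21581528 to 35560463 reads. Replicates of a group correlated with Pearson r of 0.955 to 0.971 across peaks, and no pair agreed within sampling noise (chi-square per degree of freedom 1.92 to 4.37). Values are given as scaled RPKM, that is, reads in a peak corrected for its width and for library size, after scaling by trimmed mean of M values (TMM). Changes are differences of log2(scaled RPKM + 1), on which the change of a low peak is understated. Peaks are named by their position on mm9, 1-based. The gene, exon or intron at each position was not analysed here.

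The response to E2 withdrawal differed between the genotypes at a minority of peaks, in both directions. The interaction was called above 0 at 6317 peaks (11.0% of those tested) and below 0 at 3510 peaks (6.10%; limma, Benjamini-Hochberg adjusted p under 0.05). Among the calls above 0 the median interaction was 0.75, and among those below 0 it was -0.90. On the log scale used, responses differed by at least 2-fold at 1851 of the calls above 0 and at 1342 of those below 0. In the plot of HMGN1-OE against wild-type changes, the called peaks lie along both sides of the line of equal change. In these bulk libraries, a peak that is open in fewer cells and a peak that is less open in each cell cannot be told apart.

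**Figure D1:**
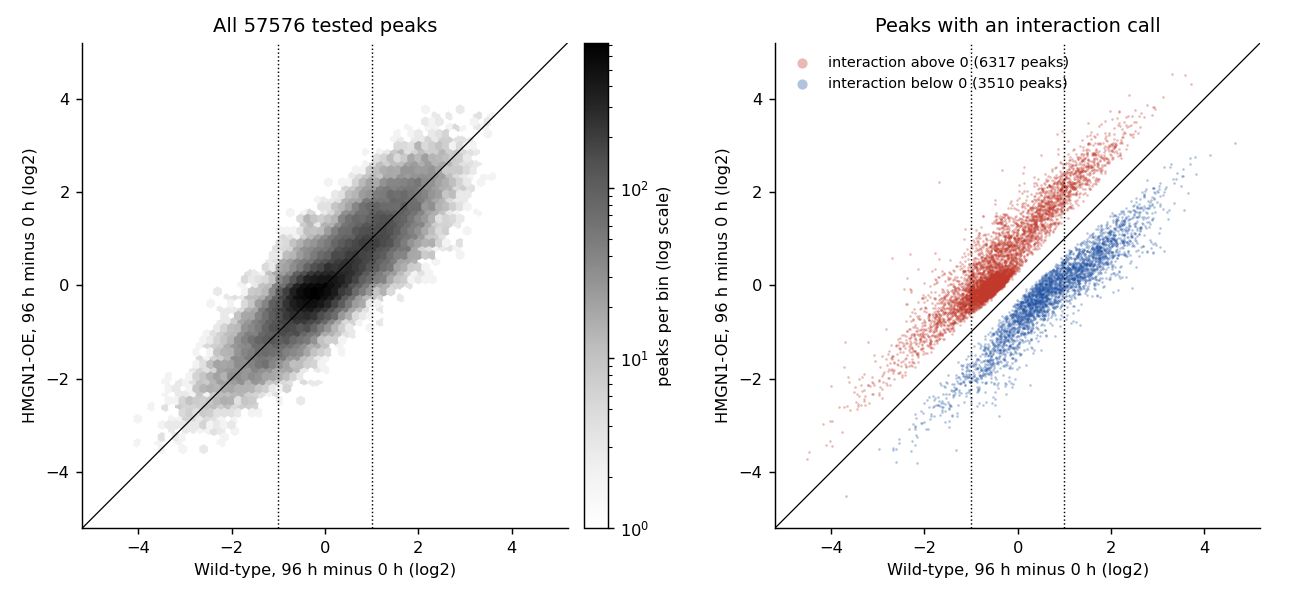
Change over 96 h in wild-type cells (x axis) and in HMGN1-OE cells (y axis), each as a difference of log2(scaled RPKM + 1), for 57576 tested peaks binned by density (left) and for peaks with an interaction call (right: 6317 above 0 in red, 3510 below 0 in blue). The solid line marks equal changes and the dotted lines the limits of -1 and 1 used for the wild-type classes; red peaks lie above the line and blue peaks below it at every wild-type change.

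The balance between the directions depended on the scaling. Without TMM scaling, on the RPKM values as they were deposited, 491 peaks were called above 0 and 26459 below 0, and the median interaction over all peaks was -0.69 against 0.02 after TMM scaling. After median-ratio (RLE) scaling the counts were 5431 and 3979, and after scaling to the reads in peaks they were 4011 and 5982. The median interaction over all peaks was -0.02 after RLE scaling and -0.13 scaled to reads in peaks. TMM scaling thus gave the highest median of the 4. All 3510 calls below 0 were called below 0 under each of these 4 scalings, and 490 of the 6317 calls above 0 were called above 0 under each. Since the other scalings mostly move values downwards, calls below 0 could hardly be lost and calls above 0 easily. The check is thus one-sided and does not rank the directions by firmness.

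The libraries also differed in the share of their reads that lies in peaks. In wild-type libraries this share was 38.8%, 35.3% and 39.0% at 0 h and 50.0%, 39.7% and 35.1% at 96 h. In HMGN1-OE libraries it was 40.2%, 41.0% and 43.9% at 0 h and 29.5%, 28.5% and 24.7% at 96 h. All 3 HMGN1-OE libraries at 96 h lay below all 9 other libraries, and the wild-type group at 96 h was spread more widely than the others through replicate 1. The interaction of this share was -18.0 percentage points (exact two-sided permutation of genotype within time points, p = 0.005 over 400 arrangements, the smallest they can give), and -13.8 without wild-type replicate 1 at 96 h. Whether the share reflects the cells or the quality of the libraries was not tested.

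Wild-type cells opened 10598 peaks (adjusted p under 0.05 and at least 2-fold higher at 96 h) and closed 5835 (at least 2-fold lower). They held 19261 steady, which here means that the change was not called and that its 95% interval lay within 2-fold either way. Here and below, the 2-fold limits apply on the log scale defined above, which understates the change of a low peak. The scaled RPKM of a low peak can therefore change by more than 2-fold while the peak is classed as steady or between the classes. The remaining 21882 peaks lay between these classes, most of them with a called change under 2-fold. Whatever its size, a change in wild-type cells was called at 33.2% of tested peaks towards higher and at 30.7% towards lower values at 96 h. HMGN1-OE libraries did not enter the change by which a peak was classed, although they shared in the estimate of its error. After TMM scaling, HMGN1-OE cells moved the large majority of opening and closing peaks in the wild-type direction. Of the peaks that wild-type cells opened, 9674 (91.3%) were also called higher at 96 h in HMGN1-OE cells and 10 were called lower, where 32.0% of all tested peaks were called higher. Of the peaks that wild-type cells closed, 5268 (90.3%) were called lower in HMGN1-OE cells and 15 higher, where 27.0% of all tested peaks were called lower. As deposited, 8684 of 13369 opening peaks (65.0%) were called higher and 220 lower, where 18.4% of all tested peaks were called higher. Of the 4315 peaks closed as deposited, 4215 (97.7%) were called lower and 3 higher, where 52.2% of all tested peaks were called lower. Of the steady peaks after TMM scaling, 2775 were called higher and 3596 lower in HMGN1-OE cells, but the difference from wild-type passed the test at fewer of them, as the next counts show.

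Interaction calls were spread unevenly over the wild-type classes. Among peaks that opened, 552 (5.21%) lay above 0 and 1369 (12.9%) below 0, so that calls were mostly of a smaller gain in HMGN1-OE cells. Among peaks that closed, 1159 (19.9%) lay above 0 and 167 (2.86%) below 0, so that calls were mostly of a smaller loss after TMM scaling. Among steady peaks, 956 (4.96%) lay above and 741 (3.85%) below 0. The background for these shares is 11.0% above and 6.10% below 0 over all tested peaks. The wild-type libraries set the class and also enter the interaction with the opposite sign, so these counts describe the split and are not a test of it. With the classes set anew under each scaling, opening peaks had more calls below than above 0 under all 4, with 497 above and 1468 below after RLE scaling, 432 and 1970 scaled to reads in peaks, and 72 and 6638 as deposited. Closing peaks had 1038 above and 194 below 0 after RLE scaling and 623 and 252 scaled to reads in peaks, but 129 and 979 as deposited, where the direction turned. The balance of steady peaks held only after TMM scaling among these 4: it was 811 above and 891 below 0 after RLE scaling, 656 and 1460 scaled to reads in peaks, and 146 and 11905 as deposited.

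The typical opening peak gained 1.47 in wild-type cells, against 1.36 in HMGN1-OE cells (medians, log2), and the median interaction in this class was -0.17. Scaled to reads in peaks, the opening medians were 1.49 and 1.28 with a median interaction of -0.28. The opening medians as deposited were 1.54 and 0.80 with a median interaction of -0.81, a much wider gap. The typical closing peak after TMM scaling changed by -1.40 in wild-type cells, against -1.24 in HMGN1-OE cells, with a median interaction of 0.25. Scaled to reads in peaks, the closing medians were -1.401 and -1.405 with a median interaction of 0.09. As deposited they were -1.42 and -1.88 with a median interaction of -0.38, so that the typical loss was then larger in HMGN1-OE cells. Over steady peaks after TMM scaling the medians were -0.03 and -0.08, with a median interaction of -0.05. Relative to the steady class, the median interaction was -0.12 for opening and 0.30 for closing peaks after TMM scaling. Under the other 3 scalings these differences were -0.11 in each case and 0.26 to 0.32, so that they moved little where the counts of calls moved much. With limma-voom, which models the recovered reads and also set the classes anew, they were 0.01 and 0.56, so that the difference for opening peaks was near 0 there.

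The class medians of single libraries, after TMM scaling, show the same courses. Over the 10598 opening peaks, the median level was 1.14, 1.16 and 1.12 scaled RPKM in wild-type libraries at 0 h and 5.92, 5.61 and 5.49 at 96 h. In HMGN1-OE libraries it was 0.88, 0.91 and 0.95 at 0 h and 4.57, 4.54 and 4.77 at 96 h. The HMGN1-OE libraries lay below the wild-type libraries at both times, with no overlap after TMM scaling. At 0 h the median difference of HMGN1-OE from wild-type over opening peaks was -0.13 after TMM scaling. It was 0.03 as deposited, with the classes set anew. Over the 5835 closing peaks, the median level was 6.20, 6.10 and 6.02 in wild-type libraries at 0 h and 1.19, 1.30 and 1.36 at 96 h. In HMGN1-OE libraries it was 7.07, 6.91 and 6.96 at 0 h and 1.90, 1.94 and 2.04 at 96 h. Here the HMGN1-OE libraries lay above the wild-type libraries at both times. The wild-type libraries set both classes, which favours a high wild-type level at 96 h in opening peaks and a low one in closing peaks. The order of the genotypes at 96 h is thus a description and no test. Over the 19261 steady peaks all 12 libraries lay between 3.34 and 3.81, with HMGN1-OE above wild-type at both times.

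The smaller median response of HMGN1-OE cells depended on which libraries set the classes. When a peak was classed by the average change of both genotypes, which weights them equally, 10365 peaks opened, with medians of 1.48 in wild-type cells and 1.51 in HMGN1-OE cells and a median interaction of 0.03. In this split 1044 opening peaks (10.1%) were called above and 818 (7.89%) below 0. The 5275 peaks that closed had medians of -1.44 and -1.45 and a median interaction of 0.005, with 538 calls (10.2%) above and 372 (7.05%) below 0. When the HMGN1-OE libraries set the classes, the order turned round. The 10337 peaks that HMGN1-OE cells opened gained 1.36 in wild-type cells and 1.51 in HMGN1-OE cells, with 1580 calls above and 317 below 0, and the 5581 that they closed changed by -1.30 and -1.42, with 270 above and 658 below 0.

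The turn was also present when no library entered both the change that set the classes and the change that was measured in the same genotype. Classes were set from the wild-type libraries of 2 replicate numbers, and the change was measured with the wild-type libraries of the remaining number and all HMGN1-OE libraries. The median interaction of opening peaks was then -0.16, -0.10 and -0.07, and that of closing peaks 0.24, 0.17 and 0.14, for the 3 ways to leave out a number. With HMGN1-OE libraries divided in the same manner, the median interaction of opening peaks was 0.20, 0.17 and 0.17, and that of closing peaks -0.16, -0.11 and -0.11. In each of these 6 divisions the genotype that set the classes had the larger median response, as the plot of medians by split shows. The wild-type division had been planned, and the HMGN1-OE division was added after seeing the data.

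**Figure D2:**
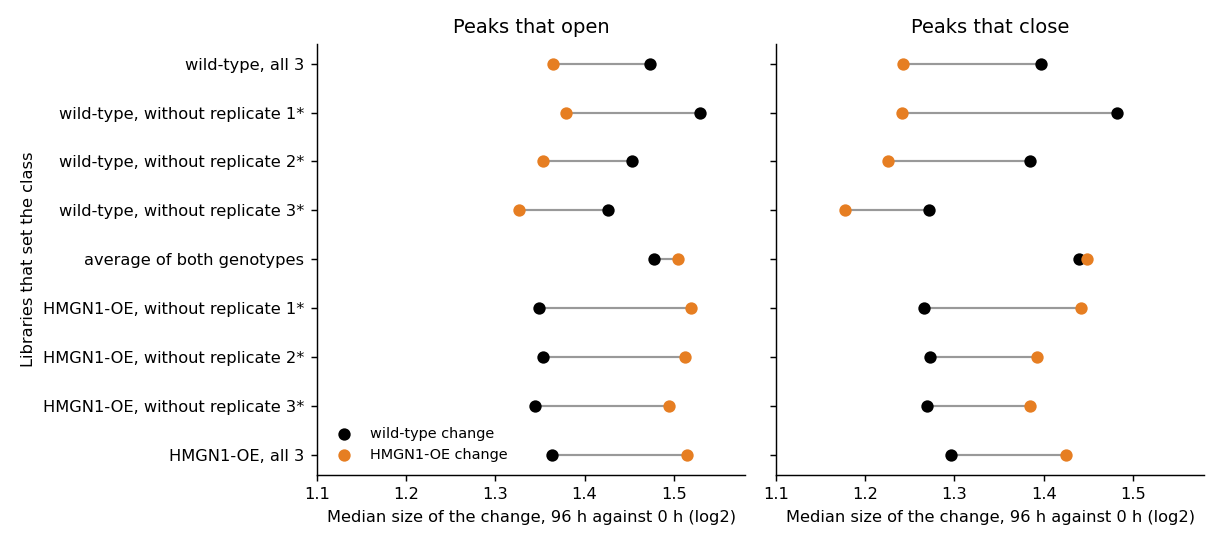
Median size of the change over 96 h (log2, x axis) in wild-type (black) and HMGN1-OE cells (orange) over peaks that open (left) and close (right), for 9 ways to set the classes (y axis); the x axis starts at 1.1. An asterisk marks splits whose classes were set without the libraries of that replicate number, which alone then measured the change of that genotype; with wild-type classes the wild-type median is larger (1.47 against 1.36 for opening peaks), with the average 1.48 stands against 1.51, and with HMGN1-OE classes 1.36 against 1.51.

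An interaction can arise from a genotype difference before withdrawal, after it, or at both times. The genotype contrasts at 0 h and at 96 h are the components of the interaction, so the counts below describe where a call came from and test nothing further. Over all tested peaks after TMM scaling, HMGN1-OE was called lower at 8276 peaks (14.4%) and higher at 5011 (8.70%) at 0 h, and lower at 6431 (11.2%) and higher at 6195 (10.8%) at 96 h. Median genotype differences moved with the scaling. At 0 h the median was -0.03 after TMM scaling, -0.003 after RLE scaling, 0.09 scaled to reads in peaks and 0.21 as deposited. At 96 h it was 0.02, 0.006, -0.01 and -0.48 in the same order.

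Opening peaks with an interaction below 0 were called apart mainly after differentiation. Of these 1369 peaks, 1222 were lower in HMGN1-OE cells at 96 h, and 1114 (81.4%) were lower at 96 h and not called at 0 h. Their median level was 1.50 scaled RPKM at 0 h and 8.21 at 96 h in wild-type cells, against 1.85 and 3.69 in HMGN1-OE cells. Levels at 0 h were thus low in both genotypes, where the added 1 compresses ratios and makes a call harder to reach. HMGN1-OE cells gained accessibility at 867 of them, lost it at 10 and showed no called change at 492. Wild-type replicate 1 at 96 h weighed on this set: without it, 795 opening peaks in place of 1222 had both an interaction below 0 and a lower level in HMGN1-OE cells at 96 h. As deposited, 6108 did. The 552 opening peaks above 0 were more mixed. HMGN1-OE was lower at 0 h only at 264 of them (47.8%), higher at 96 h only at 204 (37.0%) and both at 31, and median levels were 1.87 and 7.83 in wild-type cells against 0.86 and 10.8 in HMGN1-OE cells.

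Closing peaks with an interaction above 0 differed at either time. Of the 1159 peaks, HMGN1-OE was lower at 0 h only at 367 (31.7%), higher at 96 h only at 452 (39.0%), and lower at 0 h and higher at 96 h at 216 (18.6%). Their median level was 14.8 at 0 h and 3.38 at 96 h in wild-type cells, against 10.9 and 5.70 in HMGN1-OE cells, which lost accessibility at 787, gained it at 15 and showed no called change at 357. The part that was lower at 0 h (606 peaks) shrank to 374 without wild-type replicate 1 at 0 h and to 393 without replicate 2. It rose to 828 without wild-type replicate 3 at 0 h. It was 270 scaled to reads in peaks and 88 as deposited. Of the 167 closing peaks below 0, 127 (76.0%) were higher in HMGN1-OE cells at 0 h only. Here the wild-type median level was 5.83 and the HMGN1-OE median 12.8 at 0 h, and they were 1.33 and 1.48 at 96 h. For this set the compressed low levels were those at 96 h. This small set shrank to between 96 and 119 peaks when any 1 of the 0 h libraries was left out. It held 130 to 167 peaks when a library at 96 h was left out.

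Nearly all steady peaks with an interaction call had a called change in HMGN1-OE cells. This largely follows from the selection, since a steady peak has a small wild-type change. Its interaction then lies close to its HMGN1-OE change. Over all steady peaks, 14.4% were called higher and 18.7% lower in HMGN1-OE cells. At 938 of the 956 steady peaks above 0 HMGN1-OE cells gained accessibility, with median levels of 2.90 at 0 h and 7.06 at 96 h against 4.84 and 4.99 in wild-type cells. HMGN1-OE was lower at 0 h only at 366 of them (38.3%), higher at 96 h only at 347 (36.3%), and crossed from lower to higher at 103. At 716 of the 741 steady peaks below 0 HMGN1-OE cells lost accessibility, with median levels of 7.63 and 3.85 against 5.19 and 5.50. Of these, 313 (42.2%) were higher at 0 h only and 259 (35.0%) lower at 96 h only. Both steady sets thus held peaks called apart at 0 h only and peaks called apart at 96 h only.

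**Figure D3:**
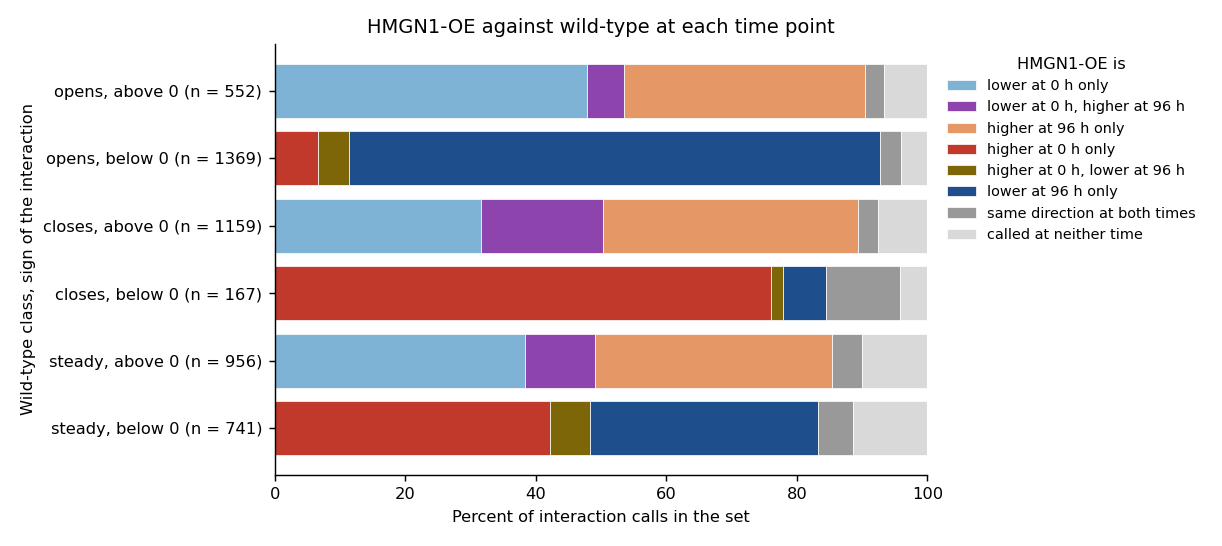
Percent of the interaction calls in each of 6 sets (wild-type class and sign of the interaction, y axis) by the call of HMGN1-OE against wild-type at 0 h and at 96 h. Of the 1369 opening peaks below 0, 81.4% were lower in HMGN1-OE cells at 96 h only, and of the 167 closing peaks below 0, 76.0% were higher at 0 h only, while the other sets were divided between the time points. In both of these sets the time point with fewer calls was the one with low median levels.

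Single peaks were taken from each of these 6 sets: the 4 with the largest interaction that were called in the same direction after TMM scaling, after RLE scaling and as deposited, with a mean level above the median of tested peaks and at most 1 per 200 kb window. Since they were chosen for their interaction, the size of it is a description. Before the limit of 1 per window, 30 opening peaks above 0 and 685 below 0 qualified. For closing peaks the counts were 46 and 114, and for steady peaks 52 and 490. The 24 peaks show what the largest of these calls look like in single libraries, not the typical call. Each is drawn in the plot of named peaks in the order used here. The median level of tested peaks was 3.90 scaled RPKM, and the peaks named span 218 to 990 bp.

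Opening peaks with a larger gain in HMGN1-OE cells fell into those that ended higher and those that started lower. On chromosome 14 at 21602193 to 21602410, wild-type libraries went from 0.468, 0.971 and 1.25 scaled RPKM at 0 h to 4.43, 2.53 and 6.88 at 96 h. HMGN1-OE libraries at the same peak went from 0.724, 0.641 and 0.418 to 15.9, 17.0 and 16.9. The groups overlapped at 0 h and were far apart at 96 h, and the interaction was 1.96 (SE 0.33, limma adjusted p = 6.43e-04). The peak on chromosome 6 at 88196254 to 88196488 had the same form, with 1.09 ± 0.44 and 3.40 ± 0.77 in wild-type cells against 0.68 ± 0.46 and 10.7 ± 2.2 in HMGN1-OE cells (mean ± SD, n = 3, at 0 h and 96 h).

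On chromosome 19 at 19824379 to 19825368, the wild-type libraries stood at 3.30, 3.71 and 2.63 at 0 h and at 11.9, 16.4 and 18.7 at 96 h. The HMGN1-OE libraries stood at 0.542, 0.529 and 0.399 at 0 h and at 18.3, 20.5 and 18.0 at 96 h. Here the HMGN1-OE libraries were all lower at 0 h and overlapped with wild-type at 96 h (interaction 1.77, SE 0.22, adjusted p = 5.31e-05). The chromosome 1 peak at 130466569 to 130467526 likewise started from 0.91 ± 0.21 in HMGN1-OE cells, against 6.07 ± 0.45 in wild-type cells, and reached 15.5 ± 0.9 against 17.3 ± 0.8.

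Opening peaks with a smaller gain included peaks that hardly opened in HMGN1-OE cells. On chromosome 2 at 119834479 to 119834830, wild-type libraries went from 1.35, 1.70 and 0.925 to 12.1, 11.4 and 11.1. HMGN1-OE libraries read 1.61, 3.37 and 2.42 at 0 h and 2.38, 2.47 and 1.95 at 96 h. The change in HMGN1-OE cells was -0.06 (adjusted p = 0.816) and the interaction -2.50 (SE 0.28, limma adjusted p = 1.67e-05). On chromosome 17 at 24103831 to 24104388, wild-type libraries went from 2.19, 2.21 and 1.26 to 24.4, 25.6 and 22.5, and HMGN1-OE libraries from 1.13, 1.44 and 1.36 to 3.15, 3.61 and 2.03. This peak did open in HMGN1-OE cells, by 0.75 on the log2 scale (adjusted p = 1.64e-03), against 3.14 in wild-type cells. The peaks on chromosome 15 at 79185117 to 79185371 and on chromosome 9 at 54321938 to 54322363 rose to 10.6 ± 0.9 and 14.7 ± 2.2 in wild-type cells, against 2.56 ± 0.09 and 2.66 ± 0.75 at 96 h in HMGN1-OE cells (SD, n = 3), where neither change was called (adjusted p of 0.452 and 0.0853). At all 4 peaks the HMGN1-OE libraries lay below every wild-type library at 96 h, which their choice for a large interaction favours. HMGN1-OE was called lower at 96 h at 89.3% of the 1369 opening peaks below 0, and at 11.2% of all tested peaks.

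Closing peaks with an interaction above 0 and the largest values were low in HMGN1-OE cells from the start. On chromosome 16 at 49952051 to 49952654, wild-type libraries fell from 27.4, 29.5 and 27.8 to 7.05, 8.56 and 8.90. HMGN1-OE libraries rose from 0.470, 0.578 and 1.31 to 7.86, 5.49 and 8.44, so that the genotypes lay far apart at 0 h and overlapped at 96 h (interaction 3.90, SE 0.24, limma adjusted p = 3.57e-08). On chromosome 10 at 126953719 to 126953990, wild-type libraries fell from 16.4, 13.6 and 11.7 to 1.0, 1.31 and 1.60. HMGN1-OE libraries stood at 1.16, 0.770 and 1.0 at 0 h and at 1.61, 2.61 and 1.79 at 96 h, so that their level at 0 h was close to that of wild-type libraries at 96 h (interaction 3.28, SE 0.27, adjusted p = 1.40e-06).

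The chromosome 12 peak at 108389352 to 108389573 followed the same course, with 15.1 ± 5.3 and then 2.05 ± 0.52 in wild-type cells, against 1.65 ± 0.12 and 2.05 ± 1.08 in HMGN1-OE cells. Only the chromosome 5 peak at 73762152 to 73762648, of the 4 named in this set, was called higher in HMGN1-OE cells at 96 h, at 8.47 ± 0.75 against 2.91 ± 0.78, after starting lower at 5.01 ± 1.26 against 18.2 ± 2.0 (SD, n = 3). HMGN1-OE cells gained accessibility at 3 of these 4 peaks, which their choice for the largest interactions favours. The loss in wild-type cells at all 4 is the rule of the class. Of all 1159 closing peaks above 0, HMGN1-OE cells gained accessibility at 15 and lost it at 787.

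Closing peaks with an interaction below 0 were more open in HMGN1-OE progenitors and closed in both genotypes. On chromosome 10 at 44497042 to 44497747, HMGN1-OE libraries fell from 16.1, 12.7 and 14.2 to 0.395, 0.336 and 0.229. Wild-type libraries fell from 1.88, 1.45 and 2.50 to 0.0701, 0.112 and 0.343 (interaction -2.21, SE 0.28, limma adjusted p = 5.96e-05). On chromosome 2 at 8747088 to 8747499, HMGN1-OE libraries stood at 15.2, 16.2 and 17.0 at 0 h, and at 96 h 1 library was listed at 0 and the others at 0.287 and 0.393. Wild-type libraries at that peak went from 2.81, 6.16 and 3.43 to 0.120, 0.0958 and 0.117 (interaction -1.66, SE 0.31, adjusted p = 1.32e-03). At 96 h both genotypes were near 0 at these peaks, where the added 1 of the log scale compresses ratios. The chromosome 2 peak at 173207812 to 173208129 also closed from a higher start in HMGN1-OE cells (wild-type cells 5.51 ± 2.37 and then 1.36 ± 0.43, HMGN1-OE cells 18.9 ± 2.2 and then 1.89 ± 0.47, interaction -1.40). With limma-voom these 3 peaks were no longer called, while their interactions were -1.64, -1.75 and -1.35 in the order given. The call was kept with limma-voom at the remaining peak of the set, on chromosome 2 at 83858590 to 83858943, where HMGN1-OE cells went from above wild-type at 0 h (14.8 ± 1.4 against 8.46 ± 1.19) to below it at 96 h (1.32 ± 0.36 against 2.56 ± 0.59).

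Among peaks that wild-type cells held steady, the largest interactions above 0 were gains of HMGN1-OE cells from a low start. On chromosome 19 at 23047965 to 23048542, wild-type libraries read 24.6, 23.9 and 19.9 at 0 h and 16.2, 18.4 and 18.8 at 96 h. HMGN1-OE libraries read 0.218, 0.906 and 0.210 at 0 h and 7.38, 8.47 and 5.18 at 96 h, so that the peak opened but stayed below every wild-type library (interaction 2.82, SE 0.25, limma adjusted p = 2.21e-06). On chromosome 11 at 87606856 to 87607687, wild-type libraries read 16.1, 15.3 and 9.43 and then 12.2, 16.2 and 15.2. HMGN1-OE libraries at this peak rose from 3.53, 2.98 and 2.19 to 20.1, 18.5 and 20.3 (interaction 2.30, SE 0.23, adjusted p = 7.59e-06). They lay below all wild-type libraries at 0 h and above them at 96 h, although the difference at 96 h did not pass the test (adjusted p = 0.0729). Peaks on chromosome 8 at 126192523 to 126192879 and on chromosome 6 at 54605816 to 54606062 also started lower in HMGN1-OE cells (2.76 ± 0.64 against 6.52 ± 1.65, and 1.04 ± 0.49 against 5.56 ± 0.31) and reached 16.0 ± 0.8 against 7.23 ± 1.36 and 8.95 ± 0.52 against 7.38 ± 1.11.

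Steady peaks with an interaction below 0 lost accessibility in HMGN1-OE cells. On chromosome 3 at 121577371 to 121577813, HMGN1-OE libraries went from 5.34, 5.68 and 7.20 to 0.990, 3.21 and 1.37. Wild-type libraries there read 5.06, 3.82 and 3.92 at 0 h and 7.38, 5.17 and 6.88 at 96 h (interaction -1.88, SE 0.31, limma adjusted p = 5.79e-04). The genotypes did not differ by the test at 0 h (adjusted p = 0.189), and at 96 h the HMGN1-OE libraries were all lower than the wild-type libraries. On chromosome 15 at 66689935 to 66690538, HMGN1-OE libraries went from 16.7, 12.8 and 12.8 to 3.90, 3.01 and 4.02 and wild-type libraries from 5.18, 6.01 and 4.49 to 4.02, 8.17 and 6.33 (interaction -1.87, SE 0.26, adjusted p = 1.20e-04). This peak was higher in HMGN1-OE cells at 0 h and lower at 96 h, where the lowest wild-type library equalled the highest HMGN1-OE library to within rounding.

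Peaks on chromosome 1 at 40307296 to 40307713 and on chromosome 4 at 117169417 to 117169766 were instead far higher in HMGN1-OE progenitors than in any other group. They stood at 11.4 ± 0.8 and 13.1 ± 0.2 scaled RPKM in HMGN1-OE cells at 0 h and at 2.70 ± 0.75 and 1.94 ± 0.60 at 96 h, while wild-type cells had 2.32 ± 0.72 and 1.09 ± 0.65 at 0 h and 2.37 ± 0.42 and 0.44 ± 0.11 at 96 h (SD, n = 3). The chromosome 4 peak was not called with limma-voom, where its interaction was -1.58 against -1.78 in the fit used here.

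**Figure D4:**
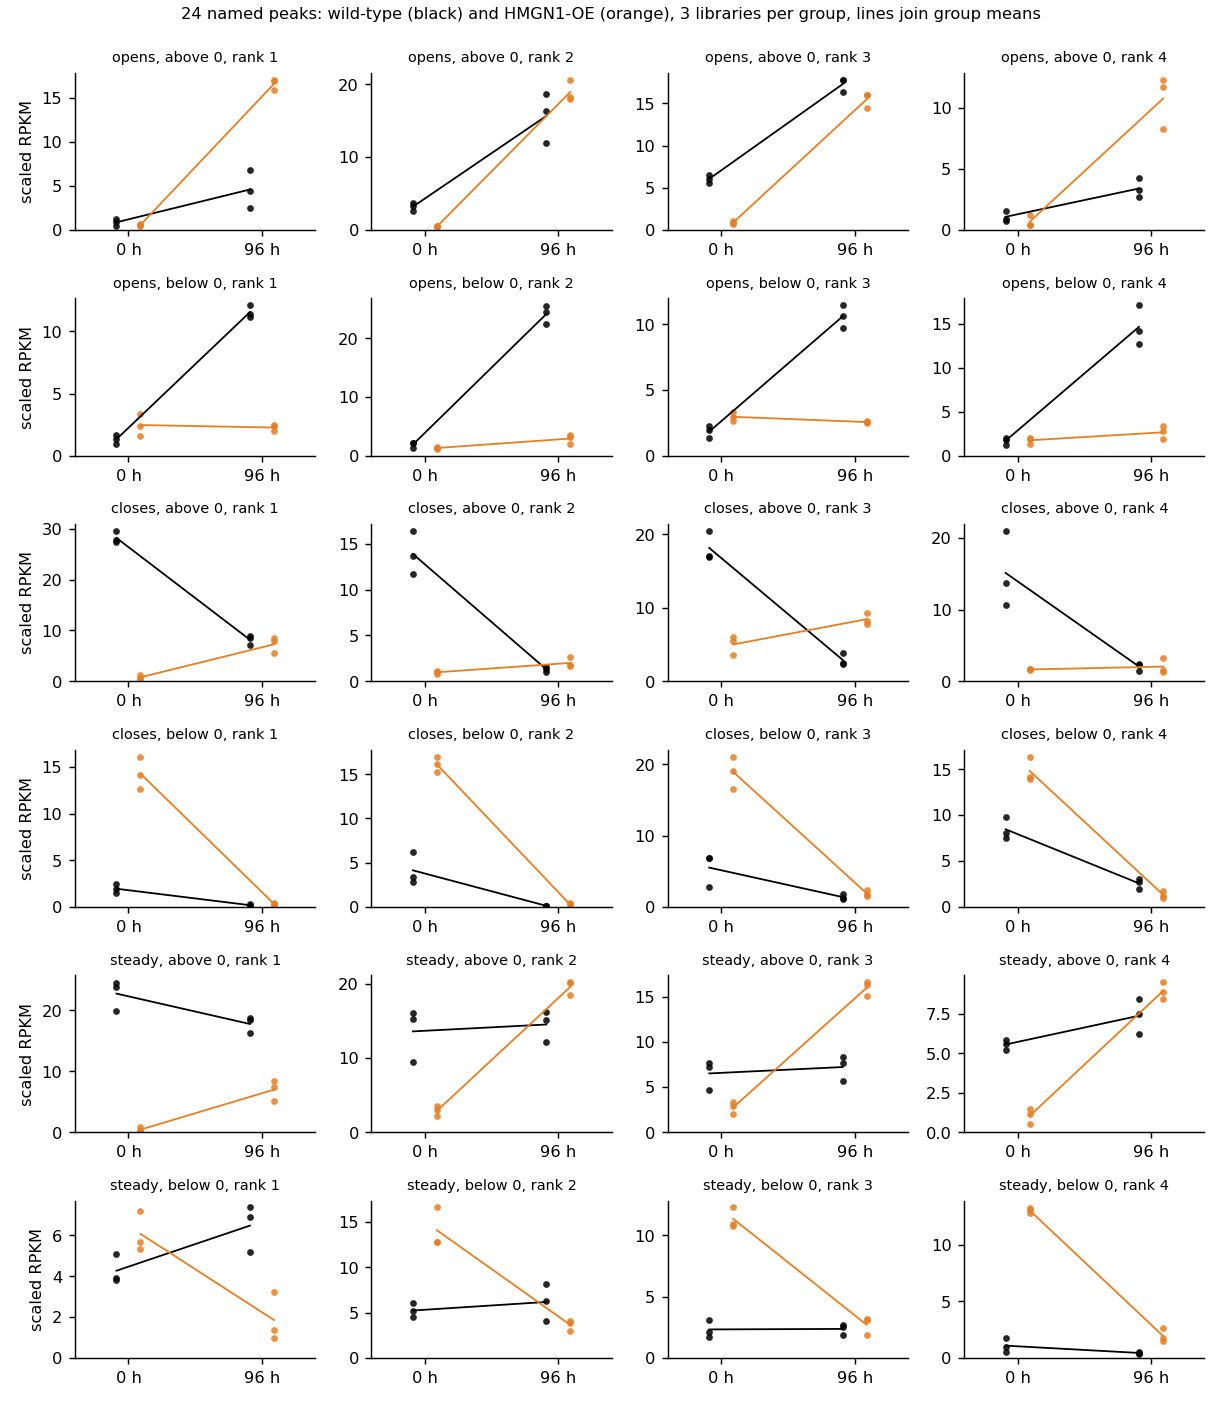
Scaled RPKM (y axes, each from 0) at 0 h and 96 h for the 24 named peaks, with 1 dot per library (wild-type black, HMGN1-OE orange, 3 libraries per group) and lines between group means; rows are the 6 sets and ranks follow the size of the interaction. In the row of opening peaks below 0 the HMGN1-OE libraries stayed between 1.13 and 3.61 while wild-type libraries at 96 h lay between 9.71 and 25.6, and in the row of closing peaks below 0 the HMGN1-OE libraries started between 12.7 and 21.1.

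Peaks between the classes held most calls above 0 after TMM scaling. Of the 21882 peaks, 11868 lost accessibility in wild-type cells by less than 2-fold, and 3005 of these (25.3%) had an interaction above 0 and 275 (2.32%) below 0, against 11.0% and 6.10% over all tested peaks. These 3005 peaks were 47.6% of all calls above 0, and 93 of them were called above 0 under all 4 scalings. They were strong and wide, with a median mean level of 27.1 scaled RPKM and a median width of 820 bp, where the median width of all peaks was 430 bp. Their median level was 34.7 at 0 h and 22.2 at 96 h in wild-type cells, against 26.1 and 25.0 in HMGN1-OE cells, and 2533 of them (84.3%) were called lower in HMGN1-OE cells at 0 h. Of the 8527 peaks that gained by less than 2-fold in wild-type cells, 586 lay above and 941 below 0. The other 1487 peaks were not called in wild-type cells but had too wide an interval to be steady, with 59 above and 17 below 0. This division was made after the counts were seen.

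After TMM scaling, calls above 0 were more frequent among strong peaks, and calls below 0 less markedly so. Over quintiles of the mean level, from lowest to highest, 4.80%, 4.79%, 5.40%, 9.21% and 30.7% of peaks were called above 0, and 3.98%, 4.26%, 5.62%, 8.96% and 7.66% below 0. Calls above 0 that held under all 4 scalings did not follow this order, with 1.65%, 0.81%, 0.60%, 0.57% and 0.63% of peaks over the same quintiles. A change of scaling moves low peaks less on the scale of log2(scaled RPKM + 1). The order under all 4 scalings can therefore not be read as a trait of the peaks. In the highest quintile, above 10.4 scaled RPKM, the median genotype difference was -0.20 at 0 h and 0.00 at 96 h, and the median interaction was 0.19. In the other quintiles the median interaction lay between -0.05 and -0.01. The widest quintile of peaks, 737 bp and over, had 23.1% of its peaks above 0 and the narrowest 5.75%, with 5.51% and 5.91% below 0. Under all 4 scalings the order was the reverse, with 0.36% above 0 in the widest and 1.34% in the narrowest quintile. A cyclic loess step after TMM, added after seeing this, removes differences between libraries that depend on the level. It left 17.6% above and 16.5% below 0 in the highest quintile, and 5026 calls above and 4158 below 0 over all tested peaks. Of the main calls, 4720 above and 3088 below 0 were called in the same direction after it, among them 1718 of the 3005 weakly closing peaks, 1095 of the 1159 closing peaks above 0 and 1247 of the 1369 opening peaks below 0. Whether the difference among strong peaks lies in the cells or in the libraries was not tested.

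**Figure D5:**
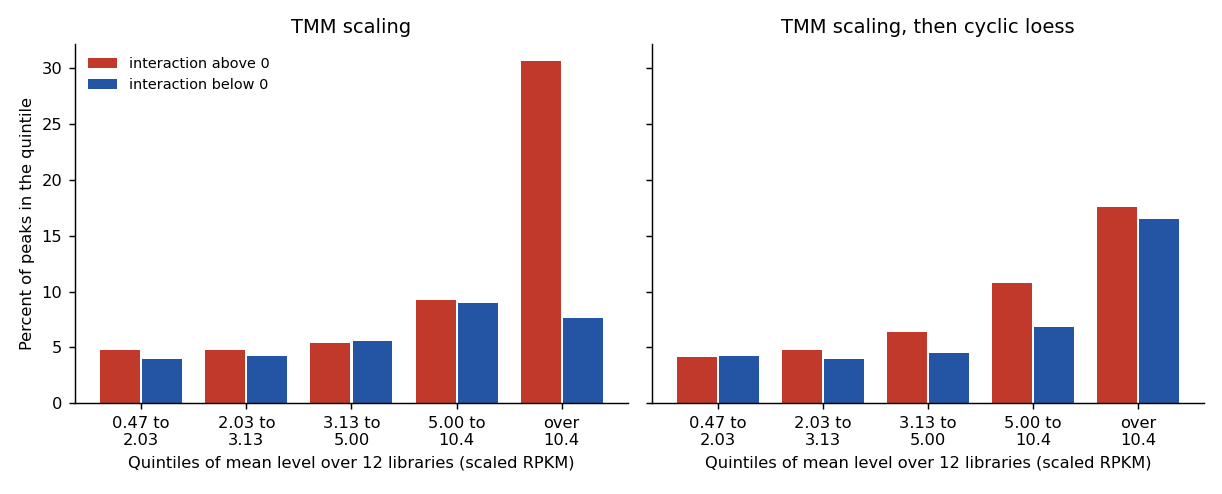
Percent of tested peaks with an interaction above 0 (red) and below 0 (blue) in quintiles of the mean level over the 12 libraries (x axis, scaled RPKM), after TMM scaling (left) and after a further cyclic loess step (right). Calls above 0 reach 30.7% in the highest quintile after TMM and 17.6% after loess, whereas calls below 0 stand at 7.66% and 16.5% there; of the calls above 0 in that quintile, those called under all 4 scalings make up 0.63% of its peaks.

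A few stretches of the genome had many calls above 0. In the 200 kb window on chromosome 9 from 3000001 to 3200000, all 21 tested peaks were called above 0, 20 of them under all 4 scalings, with a median interaction of 1.78 (0.87 as deposited). Median levels in this window were 82.2 and 66.6 scaled RPKM in wild-type cells at 0 h and 96 h, and 42.4 and 118 in HMGN1-OE cells. Windows on chromosome 8 from 19800001 to 20000000 (19 of 31 peaks, median interaction 1.11) and on chromosome 5 from 15000001 to 15200000 (16 of 21 peaks, median 1.24) held 6 and 5 peaks called under all scalings. The chromosome 11 window from 3000001 to 3200000 had 20 of 35 peaks above and 2 below 0, but its median interaction of 0.66 became -0.06 as deposited. How reads that match several places in the genome were assigned is not given in the sources used here, and the repeat content of these windows was not analysed here. Calls below 0 were less gathered: the window with most of them, on chromosome 13 from 23600001 to 23800000, had 9 of 22 peaks below 0.

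Chromosome X had few calls below 0. Of its 1201 tested peaks, 29 (2.41%) lay below 0 and 143 (11.9%) above, against 6.10% and 11.0% over all tested peaks, and 18.5% of them opened in wild-type cells. On the autosomes calls below 0 ranged from 4.66% to 7.50% and calls above 0 from 9.27% to 13.1% of peaks. These shares are a description, since peaks of a chromosome are not independent and no test was made between chromosomes.

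The limit of 2-fold divides a continuum of wild-type changes. The opening peak nearest the limit changed by 1.0 in wild-type cells and 1.33 in HMGN1-OE cells, and the called peak just under it by 1.0 and 2.26. The closing peak nearest the limit changed by -1.0 and -0.73, and the called peak just short of it by -1.0 and 0.15. On the linear scale, where gains and losses are differences of scaled RPKM rather than of logarithms, 54 of the 6317 calls above 0 and 1 of the 3510 below 0 had the opposite sign.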

How the data were processed

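Sample titles gave the group and replicate number of each library. The deposited unit was RPKM, which the authors computed per peak. Per the study's methods, Omni-ATAC libraries were processed with ChiLin, BWA and MACS, and the submitters' processing notes name mm9. The sources used here do not state the merging of peaks, the shifting of read ends or the handling of duplicates. RPKM times peak width gave whole reads for 100% of values (tolerance 0.001 reads), so reads and library totals were recovered. Shares of reads in peaks had Wilson 95% intervals of at most ± 0.02 percentage points, for counting error only. A peak was tested if it had 15 reads or more in all and if 3 or more libraries held 10 reads or more, after adjusting each to the median library. TMM factors (30% and 5% trimmed) came from the recovered reads. A single fit in limma 3.58.1 (R 4.3.3), with mean-variance trend and robust moderation, had 4 group means and no replicate block. Deviations of same-numbered replicates from their group means had correlations of -0.04 to 0.06 across peaks. Counting noise and scaling can hide a shared batch, so this does not exclude that the numbers pair the samples. A fit with the replicate number as a block is given below. P-values were two-sided and Benjamini-Hochberg adjusted over all 57576 tested peaks. The fit was checked on simulated data. The classes, the rule for named peaks (given with them) and the tests were chosen with earlier results of these data known. A check of marker genes and planned gene lists was not made, since the gene table used here describes another build. Alternatives changed scaling, pseudocount (0.25 and 4), filter, model, class rule and libraries. Figures were drawn with matplotlib 3.10.9.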

Additional observations from a re-analysis of the deposited data

Results flagged for a closer look

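The 24 named peaks are listed because the change over 96 h differed between the genotypes by a test of the difference itself (limma interaction, adjusted p under 0.05). The interaction, as a log2 fold change after TMM scaling, stands in parentheses. They had been chosen for its size, which is therefore not independent of that choice. Among peaks that opened in wild-type cells, the gain was larger in HMGN1-OE cells on chromosome 14 at 21602193 (1.96), chromosome 19 at 19824379 (1.77), chromosome 1 at 130466569 (1.74) and chromosome 6 at 88196254 (1.74). It was smaller or absent in HMGN1-OE cells on chromosome 2 at 119834479 (-2.50), chromosome 17 at 24103831 (-2.39), chromosome 15 at 79185117 (-2.19) and chromosome 9 at 54321938 (-2.14). Among peaks that closed in wild-type cells, HMGN1-OE cells lost less or gained on chromosome 16 at 49952051 (3.90), chromosome 10 at 126953719 (3.28), chromosome 5 at 73762152 (2.98) and chromosome 12 at 108389352 (2.51). They lost more on chromosome 10 at 44497042 (-2.21), chromosome 2 at 8747088 (-1.66), chromosome 2 at 173207812 (-1.40) and chromosome 2 at 83858590 (-1.36). Among peaks held steady in wild-type cells, HMGN1-OE cells gained on chromosome 19 at 23047965 (2.82), chromosome 11 at 87606856 (2.30), chromosome 8 at 126192523 (2.05) and chromosome 6 at 54605816 (1.97). They lost accessibility on chromosome 3 at 121577371 (-1.88), chromosome 15 at 66689935 (-1.87), chromosome 1 at 40307296 (-1.79) and chromosome 4 at 117169417 (-1.78). The share of reads in peaks also differed between the genotypes in its change over time, by -18.0 percentage points (exact two-sided permutation test, p = 0.005). Groups of 3 libraries are too small to be tested for a single outlying library.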

How the results depend on the processing

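The 24 named peaks kept the direction of their interaction under every alternative run, and 20 kept their call under all runs that tested them. Their choice had already required the call after RLE scaling and as deposited. It also favoured large interactions, so these counts say little about other calls. The other 4 lost it with limma-voom, and 5 peaks could not be tested under the stricter filter. Calls above 0 numbered 4752 to 6899 and calls below 0 2562 to 3390 when each library was left out in turn. They were 491 and 26459 as deposited and 4011 and 5982 scaled to reads in peaks, and 504 of the calls above 0 were called below 0 as deposited. With the replicate number as a block, 6282 peaks lay above and 3434 below 0, and no count given by class moved by over 1.5 times. Without the 4 windows with most calls above 0, added after seeing the data, they were 6241 and 3508. Opening peaks below 0 that were lower at 96 h numbered 6108 as deposited, and 795 to 1172 with each library left out. Closing peaks above 0 that were lower at 0 h numbered 88 as deposited, 270 scaled to reads in peaks, 360 with a pseudocount of 4, and 374 to 828 with each library left out. A pseudocount of 4 left 3476 opening peaks (3400 of them higher in HMGN1-OE cells) and 1893 closing peaks (1834 lower), since it compresses changes under the 2-fold limit. With limma-voom 8816 peaks closed and 12328 were steady. Calls in closing peaks below 0 fell from 167 to 102 with a pseudocount of 0.25 and to 104 with limma-voom. With classes by adjusted p alone, 1138 opening peaks lay above and 2310 below 0, and 4164 closing peaks above and 442 below 0. The median interaction relative to the steady class was 0.00503 (opening) and 0.56 (closing) with limma-voom, 0.0583 and 0.0321 with classes from the average, and 0.22 and -0.22 with classes from HMGN1-OE libraries. With wild-type replicate 2 or 3 kept out of the classes it was -0.0653 or -0.0537 (opening) and 0.21 or 0.17 (closing). With HMGN1-OE replicate 1, 2 or 3 kept out, it was 0.16, 0.15 or 0.16 (opening) and -0.19, -0.13 or -0.12 (closing). The share of reads in peaks had an interaction of -21.3 to -13.8 points with each library left out. The cause of these shifts was not tested beyond what the settings themselves change. Depth limits what can be tested: 2496 of the 60072 peaks had too few reads.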
